A study of Mus musculus with 4 samples.

Results

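The genes described here are 8 markers of undifferentiated mouse stem cells: the developmental pluripotency-associated genes Dppa2, Dppa3, Dppa4 and Dppa5a, with Zfp42 (also called Rex1), Tcl1, Fbxo15 and Khdc3. They were found by matching Ensembl gene IDs, with the version removed, to these symbols, and all 8 were present among the 20296 genes of the table. All 8 also had an adjusted p and so belong to the 16361 genes tested. RNA had been sequenced from mouse stem cells in a naive state (nESC) and in an epiblast-like state (EpiLSC), with 2 samples per state, 1 from each of the mouse embryonic stem cell lines R1 and E14TG2a (E14). The nESC grew in 2i/LIF, a medium with a pair of kinase inhibitors and the cytokine LIF. EpiLSC had been made from such nESC on gelatin in N2B27 medium with activin A at 20 ng/ml and bFGF at 12 ng/ml, and were collected on day 3. The labels name no genetic change in either group. Each line was sampled 1 time per state, so the spread within a state includes the difference between the lines, and the p-values do not measure repeat cultures of 1 line. The medium and the state changed together and cannot be told apart.

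Naive stem cells resemble the inner cells of the embryo before implantation, and epiblast-like cells resemble the epiblast just after it. The genes of this set were mostly found in screens for transcripts restricted to embryonic stem cells and early germ cells, and several are standard reporters of the undifferentiated state. Dppa2 and Dppa4 are paired DNA-binding proteins of chromatin with a SAP domain. Dppa3 protects DNA methylation in the early embryo, and Dppa5a and Khdc3 carry an RNA-binding KH-type domain. Zfp42 is a zinc finger factor related to YY1, Tcl1 is a coactivator of AKT kinases, and Fbxo15 is an F-box protein, the substrate-binding part of a ubiquitin ligase.

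Values per sample were not analysed here, because the file holds 1 comparison of the states: a mean normalized count over the 4 libraries, a log2 fold change with its standard error (SE), and p-values. Positive fold changes were taken as higher in EpiLSC from genes outside the set. Fgf5, Otx2 and Dnmt3b, of the epiblast after implantation, had log2 fold changes of 8.40, 3.90 and 4.63 in the authors' deposited table, and the naive genes Klf4, Esrrb and Tbx3 had -6.29, -8.54 and -7.60. A gene was said to rise or fall when its adjusted p was under 0.05 (DESeq2 Wald test, Benjamini-Hochberg over all genes tested). A level per state is the split of the mean that the fold change implies; it carries no SD. In such bulk samples fewer cells expressing a gene and less RNA per cell cannot be told apart. The means of all genes summed to 27888600 normalized counts, and no total of reads per library was used here.

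Of the 8 genes, 6 fell in EpiLSC and 0 rose, while Dppa2 and Dppa4 did not pass. Among all tested genes 6.23% fell and 7.67% rose. The same 6 passed when tested against a 2-fold change, where 3.07% of all tested genes fell. The median log2 fold change of the 8 was -6.07, against 0.02 over all genes tested. Tcl1, Fbxo15, Dppa3, Zfp42, Khdc3 and Dppa5a were the genes that fell, in order of the size of the fold. The 8 were chosen with earlier results of these data known, so the count is a description of the set.

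**Figure D1:**
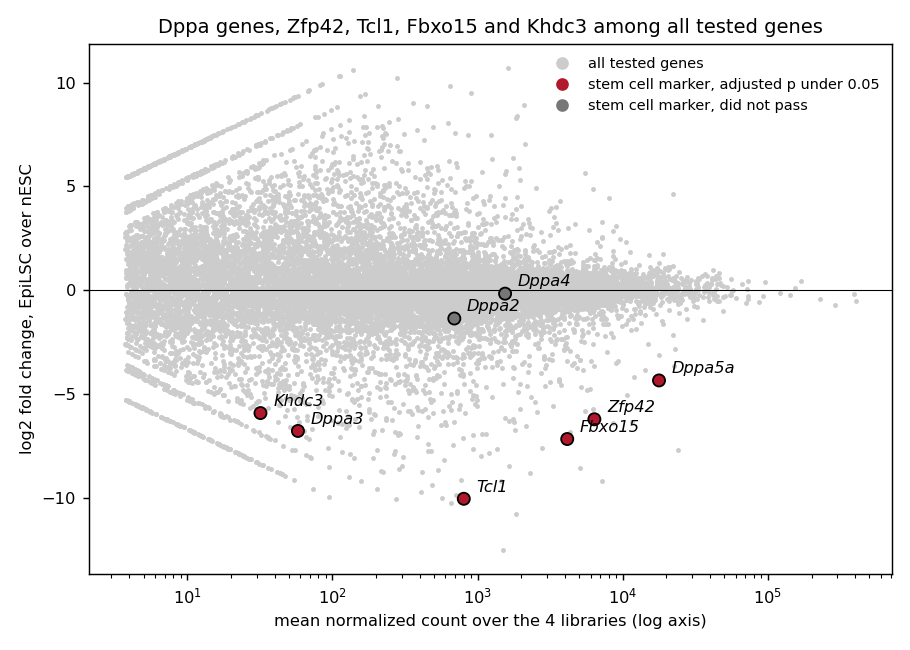
Each grey point is 1 of the 16361 tested genes, with its mean normalized count over the 4 libraries on a log x axis and its log2 fold change (EpiLSC over nESC) on the y axis; the 8 marker genes are the large labelled points, red where the adjusted p was under 0.05. Dppa5a, Zfp42 and Fbxo15 lie at the right-hand, abundant side below the bulk of genes, and Dppa4 lies at -0.17, inside it.

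Zfp42, the zinc finger gene used as the classic reporter of naive cells, had a mean of 6372 normalized counts in the authors' deposited table. The implied level was 12574 in nESC and 169 in EpiLSC, so that 1.34% of the naive level remained (95% interval 0.582% to 3.10%). Its log2 fold change was -6.22 (SE 0.62; adjusted p = 5.87e-21) according to the authors' deposited table. That SE was low: only 7.0% of the 500 genes of nearest mean had a smaller one. By p-value Zfp42 ranked 15 among the 16361 tested genes.

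Fbxo15, the F-box gene whose locus carried the first reporter used to select reprogrammed cells, had a mean of 4143 normalized counts in the authors' deposited table. It went from an implied 8229 normalized counts in nESC to 57.1 in EpiLSC. The log2 fold change was -7.17 (SE 0.70; adjusted p = 1.78e-21) according to the authors' deposited table, and its p-value ranked 13 among all tested genes. The level left in EpiLSC was 0.694% of that in nESC (95% interval 0.268% to 1.8%). Its interval overlapped that of Zfp42, and the difference between these genes was not tested.

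Tcl1, which binds AKT kinases and raises their activity, had the most negative point value of the set. Its mean was 803 normalized counts in the authors' deposited table. Implied levels were 1605 in nESC and 1.51 in EpiLSC. The log2 fold change, -10.05 with an SE of 1.08 (adjusted p = 8.81e-18) according to the authors' deposited table, ranked 5 among all tested genes, counted from the largest fall. An EpiLSC level under 3 normalized counts rests on few reads, so the size of this fold is uncertain. Its 95% interval ran from -12.17 to -7.93 on the log2 scale, and the whole interval lay below those of Zfp42 and Dppa5a. It overlapped those of Fbxo15, Dppa3 and Khdc3, whose lower ends were -8.54, -9.76 and -8.71. Differences among these 4 genes were not tested.

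Dppa5a, also known as Esg1, encodes a small KH-type protein and was the most abundant of the 8. Its mean was 17767 normalized counts in the authors' deposited table, 213th in rank among the tested genes. The implied level fell from 33871 normalized counts in nESC to 1664 in EpiLSC, the log2 fold change being -4.35 (SE 0.71; adjusted p = 5.45e-08) according to the authors' deposited table. Of the 6 genes that fell it kept the largest share of its naive level, 4.91% (95% interval 1.87% to 12.9%). Dppa5a has 2 annotated pseudogene copies, Dppa5b and Dppa5c, each 97.0% identical to it over 297 aligned transcript bases, so reads could have been shared and its level is uncertain.

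Dppa3 and Khdc3 were the scarce members. Dppa3, known as Stella and a marker of primordial germ cells and of the egg, had a mean of 57.9 normalized counts, and its log2 fold change was -6.78 (SE 1.52; adjusted p = 0.000161) according to the authors' deposited table. Khdc3, known as Filia, belongs to a protein complex under the surface of the egg, and had a mean of 31.9 normalized counts, and its log2 fold change was -5.92 (SE 1.42; adjusted p = 0.000523) according to the authors' deposited table. The implied levels of Dppa3 were 115 normalized counts in nESC and 1.04 in EpiLSC. Those of Khdc3 were 62.8 and 1.04 normalized counts. Both genes thus had the lowest implied nESC levels of the set and were near the limit of counting in EpiLSC. Their 95% intervals were the widest of the set, from -9.76 to -3.81 for Dppa3 and from -8.71 to -3.13 for Khdc3 on the log2 scale. Dppa3 has a pseudogene copy, Dppa3-ps, that is 98.2% identical over 451 bases, and Zfp42 has one, Zfp42-ps1, that is 98.1% identical over 266 bases. Of the 2050 exon bases of Khdc3, 790 are shared with Gm20509, annotated on the same strand. Reads there could have been shared or left out, so the level of Khdc3 is uncertain. None of these copies or overlapping models was a row of the table.

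**Figure D2:**
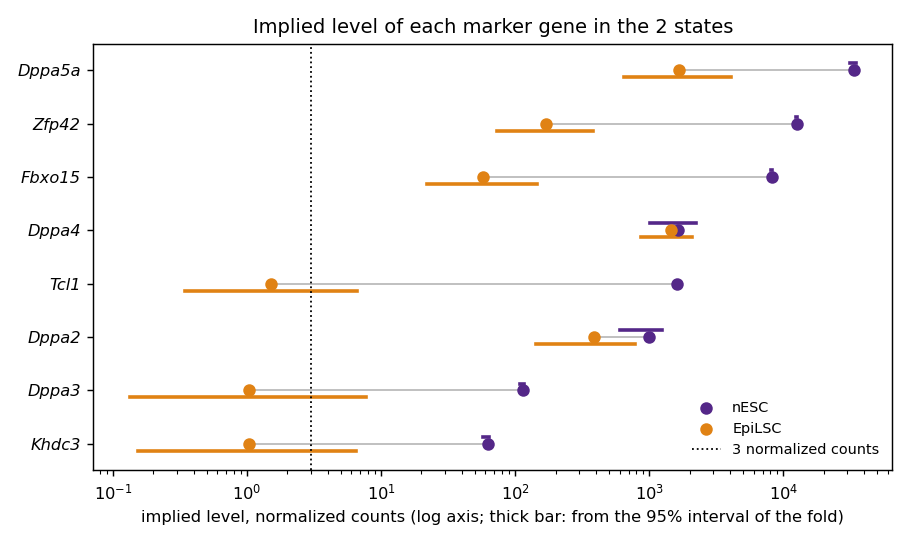
The implied level of each of the 8 genes in nESC (purple) and EpiLSC (orange) is shown in normalized counts on a log axis, with thick bars for the levels at the ends of the 95% interval of the fold change and a dotted line at 3 normalized counts. Tcl1, Dppa3 and Khdc3 end left of the line in EpiLSC, while the points of Dppa4 nearly coincide.

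Dppa2 and Dppa4, which bind each other and mark promoters of developmental genes in stem cells, were the members that did not pass. Dppa4 had a mean of 1546 normalized counts, and its log2 fold change was -0.17 (SE 0.62; adjusted p = 0.976) according to the authors' deposited table. Its implied levels were 1635 normalized counts in nESC and 1458 in EpiLSC. The 95% interval of Dppa4, from -1.38 to 1.05 on the log2 scale, did not overlap the interval of any of the 6 genes that fell. This SE was among the smallest at its abundance, with 6.60% of the 500 genes of nearest mean below it. An estimated log2 fold change of 1.67 either way was needed for a call at that SE, so a real change of Dppa4 could have been missed.

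Dppa2 lay between Dppa4 and the genes that fell. Its mean was 691 normalized counts and its log2 fold change -1.36 (SE 0.89; adjusted p = 0.434) according to the authors' deposited table. Implied levels were 995 normalized counts in nESC and 387 in EpiLSC, and 38.9% of the naive level remained (95% interval 11.6% to 130%). The interval included no change and, at its lower end of -3.10, also overlapped that of Dppa5a, but not those of the other 5 genes that fell. At this SE a log2 fold change of 2.40 was needed for a call. The SE was larger than those of 87.8% of the 500 genes of nearest mean, whereas that of Dppa4 was low. The difference between Dppa2 and Dppa4 was not tested.

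**Figure D3:**
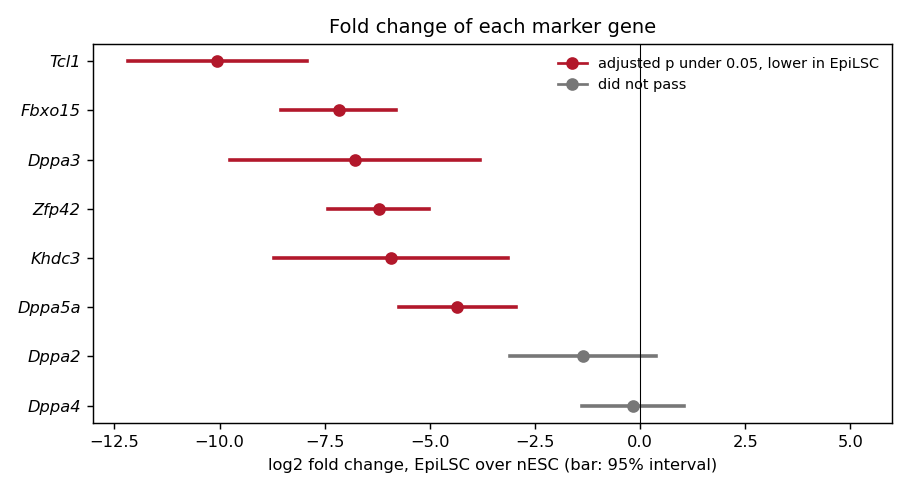
The log2 fold change (EpiLSC over nESC) of each of the 8 genes is drawn with its 95% interval, red where the adjusted p was under 0.05 and grey otherwise. The 6 red intervals end at or left of -2.95, and those of Dppa2 and Dppa4 cross 0.

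Levels of different genes were compared per length of annotated exon. In nESC the order of implied normalized counts per kilobase was Dppa5a (54718), Zfp42 (6685), Fbxo15 (2449), Dppa4 (984), Tcl1 (870), Dppa2 (407), Dppa3 (129) and Khdc3 (30.7). Dppa5a stood higher than 99.95% of the tested genes with a length, and Khdc3 higher than 37.4%. Both levels are uncertain, because reads could have been shared with other annotated copies or models. In EpiLSC the order of the same quantity changed to Dppa5a (2688), Dppa4 (877), Dppa2 (158), Zfp42 (89.8), Fbxo15 (17.0), Dppa3 (1.17), Tcl1 (0.820) and Khdc3 (0.506). Dppa4 and Dppa2 thus moved up to the second and the third place. Zfp42, above 99.2% of tested genes in nESC, was above 54.8% in EpiLSC. Neighbours in these orders carry no spread over samples, and Dppa3, Tcl1 and Khdc3 cannot be ordered in EpiLSC, where all rest on few reads.

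RefSeq promoter windows are shown for Zfp42, Tcl1 and Khdc3, which all fell. No window was available for Dppa2, Dppa3, Dppa4 or Dppa5a. Fbxo15, which also fell, is not shown, since a filter by chromosome was applied to the windows. The windows are given to compare the letters upstream of genes that moved the same way. Each runs from 250 bases before the RefSeq start to 50 after it, 5′ to 3′ along the gene, on GRCm38.p6, which is not the mm9 build of the deposited table. Zfp42 lies at chr8:43306960-43307259 (minus strand), Tcl1 at chr12:105222688-105222987 (minus strand) and Khdc3 at chr9:73102148-73102447 (plus strand). Capitals mark the octamer bound by POU factors such as Oct4 (ATTTGCAT or its reverse ATGCAAAT) and the CACCC element bound by Kruppel-like factors (CCACCC or GGGTGG).
Zfp42: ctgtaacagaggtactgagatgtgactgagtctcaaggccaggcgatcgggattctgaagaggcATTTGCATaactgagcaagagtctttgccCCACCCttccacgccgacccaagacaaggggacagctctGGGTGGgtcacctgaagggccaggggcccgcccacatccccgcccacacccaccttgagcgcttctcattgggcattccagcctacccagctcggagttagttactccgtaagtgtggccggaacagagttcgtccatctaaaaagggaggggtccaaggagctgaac
Tcl1: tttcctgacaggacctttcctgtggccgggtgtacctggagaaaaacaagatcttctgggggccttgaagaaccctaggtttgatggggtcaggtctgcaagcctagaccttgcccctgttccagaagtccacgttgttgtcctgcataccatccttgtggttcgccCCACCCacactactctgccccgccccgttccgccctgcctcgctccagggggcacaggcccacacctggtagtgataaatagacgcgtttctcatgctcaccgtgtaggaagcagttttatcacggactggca
Khdc3: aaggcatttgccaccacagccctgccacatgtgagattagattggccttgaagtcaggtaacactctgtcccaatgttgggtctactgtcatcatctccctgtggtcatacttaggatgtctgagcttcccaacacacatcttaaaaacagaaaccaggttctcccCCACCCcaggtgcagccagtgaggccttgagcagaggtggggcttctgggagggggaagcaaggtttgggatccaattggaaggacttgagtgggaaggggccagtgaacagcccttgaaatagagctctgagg

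The window of Zfp42 held 1 octamer, 186 to 179 bases before the start, and 2 CACCC elements. An octamer was present in 1.74% of all 32841 windows of that length. The Tcl1 and Khdc3 windows held 1 CACCC element each, an element found in 31.5% of all windows, and no octamer. No window of the 3 held the nuclear receptor half-site AAGGTCA (or TGACCTT), the E-box CACGTG or the TATA box TATAAA (or TTTATA), which were in 4.72%, 7.15% and 13.6% of all windows. The motifs were searched on both strands and did not overlap each other here. The Khdc3 window had 0 CpG dinucleotides in its 300 bases, whereas those of Zfp42 and Tcl1 had 11 each, with an observed over expected ratio of 0.44 and 0.46 against a median of 0.38 over all windows. These matches describe letters only.

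The genes next to the 8 were compared by gene order in GENCODE M21, taking the 2 nearest rows of the table on each side. There were 28 such neighbours outside the set, of which 21 had an adjusted p. Of these 21, 7 fell (33.3%, against 6.23% of all tested genes) and 1 rose. The 7 lay at 4 places: beside Zfp42, beside Dppa5a, around Dppa3 and beyond Dppa2.

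At the Zfp42 locus, Triml2 and Triml1, which encode tripartite-motif-like proteins, fell with it. Their log2 fold changes were -6.22 (SE 0.64) and -8.48 (SE 0.73) according to the authors' deposited table. Triml1 went from an implied 3307 normalized counts in nESC to 9.26 in EpiLSC and Triml2 from 3452 to 46.5. On the other side the atypical cadherin gene Fat1 did not pass, at 1.32 (SE 0.91) according to the authors' deposited table. The run of 3 neighbouring genes that fell thus ended at Fat1.

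Dppa5a has Ooep beside it, a related KH-type gene of the egg's subcortical maternal complex. Ooep fell by 5.28 on the log2 scale with an SE of 0.71 (adjusted p = 1.48e-11), at a mean of 995 normalized counts in the authors' deposited table. Its implied level went from 1940 normalized counts to 49.98. The intervals of Ooep and Dppa5a overlapped.

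Around Dppa3, the TGF-beta family gene Gdf3, the homeobox gene Nanog and the glucose transporter gene Slc2a3 fell, with log2 fold changes of -3.35 (SE 0.62), -2.25 (SE 0.75) and -2.81 (SE 0.67) according to the authors' deposited table. Apobec1 did not pass there, at -0.66 (SE 0.74). Dppa3 had the most negative value of this group, but its wide interval overlapped those of Gdf3 and Slc2a3. The calls of Nanog and Slc2a3 ended when tested against a 2-fold change: the adjusted p became 0.666 for Nanog (range 0.0238 to 0.666 over the alternatives) and 0.0878 for Slc2a3 (range 0.000414 to 0.0878).

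At the locus of Dppa4 and Dppa2, the next gene, Morc1, fell although neither of the pair passed. Morc1, an ATPase gene needed to silence transposons in male germ cells, had a mean of 4320 normalized counts, and its log2 fold change was -6.81 (SE 0.68; adjusted p = 8.09e-21) according to the authors' deposited table. Its implied level went from 8565 normalized counts in nESC to 76.2 in EpiLSC. The 95% interval of Morc1, from -8.14 to -5.49 on the log2 scale, did not overlap that of Dppa2 or Dppa4. On the outer sides, Nectin3 (0.75, SE 0.70), Gm4737 (-0.40, SE 0.62) and Dzip3 (0.06, SE 0.67) did not pass, going by the authors' deposited table.

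The remaining loci had no neighbour that fell. Beside Tcl1, its relatives Tcl1b3 and Tcl1b1 had means of 1.07 and 2.42 normalized counts in the authors' deposited table and no adjusted p, and Tunar, annotated as protein-coding, did not pass (0.80, SE 1.07). Beside Fbxo15, Timm21, a gene of mitochondrial protein import on the other strand, rose by 2.56 on the log2 scale (SE 0.71; adjusted p = 0.00355) according to the authors' deposited table. Timm21 overlaps Fbxo15 in the annotation but shares 0 exon bases with it, and its call ended against a 2-fold change (adjusted p = 0.261; 0.00301 to 0.261 across settings). Around Khdc3, Rab27a (1.07, SE 0.68) and Rsl24d1 (0.47, SE 0.77) did not pass, going by the authors' deposited table.

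**Figure D4:**
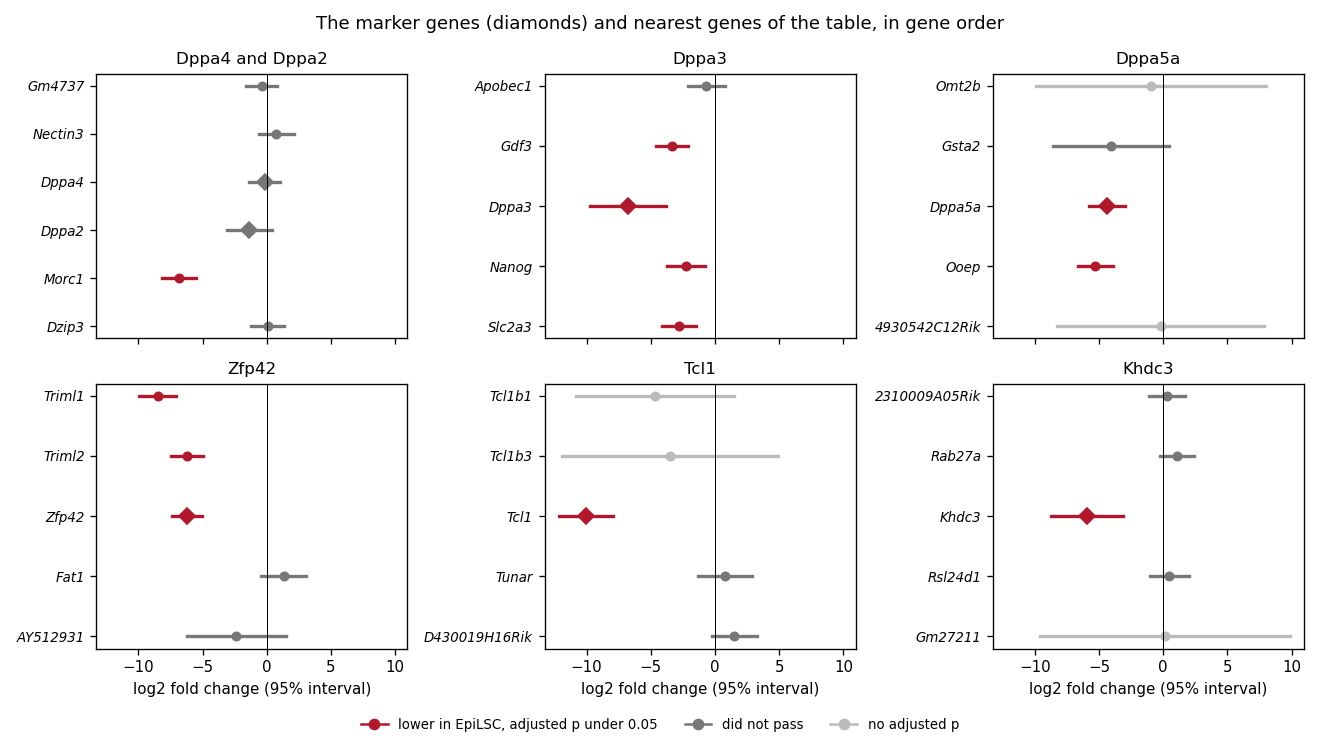
Each panel shows 1 locus in gene order, with the log2 fold change (EpiLSC over nESC) and 95% interval of the marker gene (diamond) and its nearest genes of the table (circles); red marks an adjusted p under 0.05, dark grey a gene that did not pass and light grey one with no adjusted p. Triml1 and Triml2 stand with Zfp42, Ooep with Dppa5a, and Morc1 stands apart from Dppa4 and Dppa2.

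All 8 genes were among the 24 candidate factors from which the reprogramming cocktail of mouse fibroblasts was first drawn, so they were set beside the other 16. Of these 16, 15 were tested: 7 fell, 1 rose and 7 did not pass. The falls included Klf4 (-6.29, SE 0.68), Gdf3, the factor gene Sox2 (-3.35, SE 0.64) and the tudor-domain gene Tdrd12 (-2.78, SE 0.67) according to the authors' deposited table. Eras, a Ras-like gene of stem cells, rose by 3.83 (SE 0.79; adjusted p = 3.26e-05) according to the authors' deposited table. Pou5f1 (-0.19, SE 0.76) and Sall4 (-0.04, SE 0.78) did not pass, going by the authors' deposited table, and had point values close to that of Dppa4. The median log2 fold change of the 15 was -0.87, against -6.07 for the 8. Against a 2-fold change Tdrd12 (adjusted p = 0.101; 0.000554 to 0.101 across settings), Dnmt3l (adjusted p = 0.0858; 0.000565 to 0.0858 across settings), Stat3 (adjusted p = 0.542; 0.0169 to 0.542 across settings) and Nanog lost their calls.

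**Figure D5:**
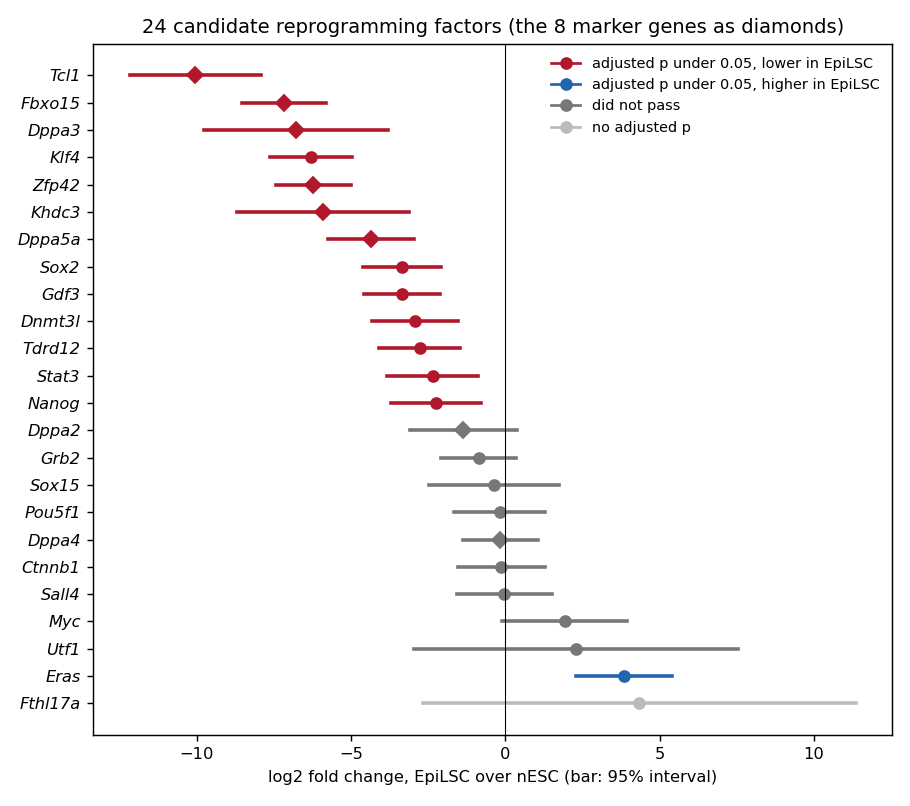
The 24 candidate factors are ordered by log2 fold change (EpiLSC over nESC, with 95% interval), the 8 marker genes as diamonds and the other 16 as circles; red fell, blue rose, dark grey did not pass and light grey has no adjusted p. Of the 7 most negative values 6 belong to marker genes and 1 to Klf4; Eras at 3.83 is the rise.

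The partners of the 8 proteins were followed through short lists. Among KH-type relatives of Dppa5a and Khdc3, Ooep fell and Khdc1a (-5.65, SE 3.04) did not pass, going by the authors' deposited table. The value of Khdc1a, at a mean of 4.85 normalized counts, rests on few reads. Khdc1c, at a mean of 2.85 normalized counts in the authors' deposited table, had no adjusted p. In the subcortical maternal complex 2 of the 5 tested partners of Khdc3 fell, Ooep and the NLR gene Nlrp4f (-3.05, SE 1.03, adjusted p 0.0269) according to the authors' deposited table, and 0 rose. The call of Nlrp4f ended against a 2-fold change (adjusted p = 0.398; 0.0269 to 0.398 across settings). Tle6 (-2.31, SE 1.15), Nlrp5 (-1.28, SE 1.98) and Zbed3 (0.96, SE 0.77) did not pass, going by the authors' deposited table, and Padi6 had a mean of 0.392 normalized counts.

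Among genes linked to Tcl1, the kinase genes Akt1 (0.80, SE 1.09) and Akt2 (-1.09, SE 0.70) did not pass, going by the authors' deposited table. Of the Tcl1 relatives, Mtcp1 did not pass (0.95, SE 0.68), and Tcl1b2, at -5.87 (SE 2.39; adjusted p = 0.088) with a mean of 5.61 normalized counts in the authors' deposited table, rests on few reads.

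Zfp42 was set beside its parent gene and the X inactivation RNAs that its protein and its ligase Rlim act on. Yy1 (0.47, SE 0.65) and Rlim (1.12, SE 0.68), the ubiquitin ligase that degrades the Zfp42 protein, did not pass, going by the authors' deposited table. Xist rose by 3.69 (SE 0.87; adjusted p = 0.000376) and its antisense partner Tsix fell by 2.04 on the log2 scale (SE 0.70; adjusted p = 0.029) according to the authors' deposited table. Tsix lost its call against a 2-fold change (adjusted p = 0.863; 0.029 to 0.863 across settings). The libraries were strand-specific, but for the counting no strand setting is given in the sources used here. Reads of Xist and Tsix may therefore not be separated. X inactivation itself was not measured, and a link of the Xist and Tsix changes to Zfp42 was not tested. For Fbxo15, the ligase subunit genes Cul1 (0.95, SE 0.72), Skp1a (0.53, SE 0.78) and Rbx1 (0.08, SE 0.62) did not pass, going by the authors' deposited table, and 0 of these 3 had a DESeq2 Wald p, before adjustment, under 0.05.

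Of the methylation proteins that Dppa3 acts on, the oxidase gene Tet3 rose by 2.49 (SE 0.74; adjusted p = 0.00792) according to the authors' deposited table, a call that ended against a 2-fold change (adjusted p = 0.372; 0.00685 to 0.372 across settings). Uhrf1, which Dppa3 keeps off chromatin, had a value of -1.25 (SE 0.65; adjusted p = 0.242) and Dnmt1 one of -0.77 (SE 0.80) according to the authors' deposited table; neither passed. Among 13 genes known to depend on Dppa2 and Dppa4, 12 were in the table and 6 were tested, of which 1 rose and 0 fell. Mael, a piRNA pathway gene, rose by 2.73 (SE 0.75; adjusted p = 0.00345) according to the authors' deposited table, but not against a 2-fold change (adjusted p = 0.217; 0.00295 to 0.217 across settings). The 2-cell-stage genes Zscan4c (-0.62, SE 1.26) and Zscan4f (-0.66, SE 1.35), near-identical copies that can share reads, did not pass, going by the authors' deposited table. The other 6 genes of the list, among them Duxf3, had no adjusted p.

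Several of the 8 are also expressed in germ cells and eggs, so markers of those and of other cells are given beside them. Of 8 primordial germ cell genes 4 fell and 2 rose: Tfap2c (-5.82, SE 0.77) and Prdm1 (-4.37, SE 0.68) fell and the helicase gene Ddx4 rose by 3.03 (SE 0.75) according to the authors' deposited table. The other falls were the receptor gene Kit (-3.73, SE 0.70) and the RNA-binding gene Dazl (-2.46, SE 0.77), and the other rise was Mael, going by the authors' deposited table. Against a 2-fold change the calls of Ddx4 (adjusted p = 0.089; 0.000731 to 0.089 across settings) and Dazl (adjusted p = 0.446; 0.0125 to 0.446 across settings) ended, and that of Dazl also ended at an adjusted p under 0.01 and with Benjamini-Yekutieli adjustment. The summed implied level of these 8 genes was 7823 normalized counts in nESC and 2265 in EpiLSC, of which Kit made up 5455 and 412. Without Kit the sums were 2367 and 1853. Ddx4, which rose, made up 159 and 1291 of these, and Dazl, which fell, 784 and 142. Egg markers were scarce, at a summed 78.0 normalized counts in nESC and 15.4 in EpiLSC, and the zona protein gene Zp3, which fell (-6.85, SE 1.67, adjusted p 0.000644) according to the authors' deposited table, made up 61.7 and 0.534 of these sums. Without Zp3 they were 16.2 and 14.9 normalized counts. Gdf9, Bmp15, Figla and Nobox had means of 4.33, 1.16, 2.77 and 2.86 normalized counts in the authors' deposited table, and Zp1 and Zp2 were not rows of it. Primitive endoderm genes summed to 92.7 and 190 normalized counts in nESC and EpiLSC, with 1 rise (Foxa2) and 0 falls among 4 tested. Without Foxa2 the sums were 91.2 and 47.2. Pdgfra made up 69.9 and 13.5 of these, and did not pass (-2.38, SE 1.03) going by the authors' deposited table. Fibroblast genes summed to 87.7 and 269 normalized counts, with 2 rises (Thy1 and Dcn) and 0 falls among 5 tested. Without Thy1 they summed to 81.9 and 127. Pdgfrb, which did not pass, made up 73.9 and 31.2 of these sums, and Dcn 0.485 and 52.6. Naive and formative genes were described in the same way: all 8 naive genes listed fell and all 5 formative genes rose. Fgf5, Otx2, Dnmt3b, Klf4, Esrrb and Tbx3 are among these genes and had set the direction of the comparison. The calls therefore cannot check the labelled identity of the cells. Sox3, a formative gene, lost its call against a 2-fold change (adjusted p = 0.114; 0.00556 to 0.114 across settings). Of the 6 core pluripotency genes 2 fell, Sox2 and Nanog, and 0 rose. Pou5f1, Sall4, Utf1 (2.29, SE 2.68) and Lin28a (1.86, SE 0.71; adjusted p = 0.0584) did not pass, going by the authors' deposited table. The part of other cell types in the falls of the 8 genes was not tested.

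For each of the 8, the tested genes nearest in mean level (log2) and log2 fold change were looked up, a likeness over 2 states only. Spic and Prdm14, both of the naive state, lay nearest to Tcl1, at distances of 0.25 and 0.35 log2 units. Morc1 and Tbx3 lay nearest to Fbxo15 (0.36 and 0.72), and Nid1 and Spp1 to Zfp42 (0.45 and 0.46). Zfp600 (0.59) and Ly75 (0.60) were nearest to Dppa5a. Bst1 and Apol6 were nearest to Dppa3, 8030453O22Rik and Sstr2 to Khdc3, Mpdu1 and Fmn1 to Dppa2, and Stx12 and Arpc4 to Dppa4.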

How the data were processed

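Strand-specific libraries of 4 samples, 2 nESC and 2 EpiLSC, were made from total RNA without ribosomal RNA, per the labels. The submitters' processing notes name TopHat2, HTSeq, DESeq2 1.8.2 and mm9. For annotation and strand setting, nothing is given in the sources used here. The authors deposited 1 comparison table: a mean normalized count (a signal, counts divided by size factors), log2 fold changes with standard errors, a Wald score, and p-values. The deposited score, p-value and adjusted p were recomputed with largest gaps of 5.9e-14, 4.4e-15 and 2.3e-15. The 3935 genes without an adjusted p (means up to 3.74) were not counted as tested.

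Calls rest on the deposited tests; single genes were tested anew, from the deposited fold changes and standard errors, only for the alternatives (a 2-fold change, other filters, another adjustment, centring). Levels were computed as 2m/(1 + 2^L) for nESC from the mean m and log2 fold change L, with what is left of 2m given to EpiLSC; this weights the 4 libraries equally. Intervals are normal 95% intervals. Names, gene order and exon lengths came from GENCODE M21 (GRCm38), with 20167 of 20296 IDs named; promoters came from RefSeq. Lists were described by counts, without set tests. Named genes were the 8, at most 4 per list and direction by p-value, the nearest genes in order, and the most alike; Dnmt3l, Stat3, Foxa2, Dcn, Zscan4f, Duxf3, Pdgfra, the near-zero markers, the genes left out of summed levels and the lost calls were named after values were seen. The genes and lists were chosen with earlier results of these data known. The threshold tests were tested on simulated data (Python 3.11.15, SciPy 1.17.1).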

Additional observations from a re-analysis of the deposited data

How the results depend on the processing

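Of the 8 genes 6 fell and 0 rose under every alternative that tested all of them: against a 2-fold change, without the filter on low means, at an adjusted p under 0.01, with Benjamini-Yekutieli adjustment and with fold changes centred on the median of genes with a mean of 100 or more. With testing limited to means of at least 100, 4 fell, since Dppa3 and Khdc3 are below that mean. The highest adjusted p over the alternatives was 0.00364 for Dppa3 and 0.011 for Khdc3, both against a 2-fold change. Over all genes the falls went from 1019 to 502 against a 2-fold change, 615 with a mean of 100 or more and 625 with Benjamini-Yekutieli adjustment, and the rises from 1255 to 628, 636 and 776. The neighbours that fell numbered 5 to 7. At the upper end of the 95% interval of the fold change, 0 of the 8 genes had an EpiLSC level under 3 normalized counts, against 3 at the fold change itself; Dppa3, Tcl1 and Khdc3 then had 7.72, 6.57 and 6.54. Among the 99 named or listed genes tested, 14 lost their call against a 2-fold change. Losses numbered 7 with Benjamini-Yekutieli adjustment and 5 at an adjusted p under 0.01. The 5 were Nanog, Stat3, Nlrp4f, Tsix and Dazl, and the 7 were these with Tet3 and Sox3. No direction of a called gene reversed. No paired analysis was possible because the table has no values per sample, and for the same reason leaving out each replicate was not run. Depth limits the folds of Dppa3, Tcl1 and Khdc3.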

Other observations

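Across all promoter windows of tested genes, the octamer was in 1.44% of 15386 windows and in 1.97% of the 912 windows of genes that fell (18 windows, Zfp42 among them). The CACCC element was in 37.7% and 41.4% and the nuclear receptor half-site in 3.39% and 4.61% of the same windows. A gene can have several windows, and these shares were not tested.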
